A study of Mus musculus with 6 samples.

Results

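The collagen chain genes of the mouse are described here as measured in EpH-4 (EpH4) cells, a mouse mammary epithelial cell line. They were taken as every gene of the deposited table whose symbol is Col, a type number, the letter a and a chain number, which gave 38 of 17428 genes. The line was sequenced as total RNA at 3 stages, with 2 libraries each and 6 in all. E cells were not given TGFβ1, M cells had 7 days of transforming growth factor β1 (TGFβ1) in the medium, and RE cells were M cell cultures returned to normal medium for another 4 days. All cells shared a medium with fetal bovine serum, insulin and antibiotics, and no deletion or transgene was involved. The stages are cultures of a single established line, and the libraries come from biological replicates of each stage. RNA was taken from whole cultures, so more cells with a transcript and more transcript per cell cannot be told apart.

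Collagens are the main structural proteins of the extracellular matrix. Each molecule winds chains of Gly-X-Y repeats, in which glycine recurs at a fixed spacing, into a helix. Fibrillar collagens, such as types I, II, III, V, XI and XXVII, pack into banded fibrils. Types IV and VIII form networks, type VI forms beaded filaments and type VII forms the anchoring fibrils that tie epithelium to the underlying stroma. The fibril-associated collagens with interrupted helices (FACIT) sit on the surface of fibrils, type XVII crosses the plasma membrane in hemidesmosomes, and the multiplexins XV and XVIII lie in basement membrane zones. In the mammary gland, epithelial cells rest on a type IV network and fibroblasts make most of the fibrillar collagen. TGFβ is a known inducer of matrix genes and of the epithelial-mesenchymal transition (EMT), and EMT with its reversal (MET) is the question behind the E vs. M, M vs. RE and E vs. RE comparisons.

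The length of the uninterrupted repeat differs between the classes, and 1 stretch of it is shown for each of 6 chains whose RNA moved most or was most abundant in its class. The sequences are 54 bases of coding exon, or 6 Gly-X-Y units, from the mouse reference (GENCODE M21 annotation, GRCm38), on the strand of the gene. Capitals mark the glycine codon (GGN) that opens each Gly-X-Y unit, and glycine codons at the X or Y position are in lower case.
Col1a1, chr11:94939904-94939957, plus strand, exon 8 of 51: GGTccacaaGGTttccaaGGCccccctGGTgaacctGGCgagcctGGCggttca
Col5a3, chr9:20801068-20801121, minus strand, exon 15 of 67: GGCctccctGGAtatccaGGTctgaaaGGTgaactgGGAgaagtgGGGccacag
Col27a1, chr4:63245069-63245122, plus strand, exon 7 of 61: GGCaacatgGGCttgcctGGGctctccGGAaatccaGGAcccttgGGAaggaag
Col4a5, chrX:141666850-141666903, plus strand, exon 45 of 54: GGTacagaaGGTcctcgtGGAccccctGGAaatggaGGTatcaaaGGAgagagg
Col6a1, chr10:76719623-76719676, minus strand, exon 9 of 35: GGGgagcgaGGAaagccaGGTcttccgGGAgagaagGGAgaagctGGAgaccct
Col7a1, chr9:108978821-108978874, plus strand, exon 102 of 118: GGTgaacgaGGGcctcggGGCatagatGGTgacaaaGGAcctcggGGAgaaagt
In the coding sequences of all 38 genes, the longest unbroken run of such units was 216 to 344 units in the 11 fibrillar chains. It was 39 to 66 units in the 6 type IV chains, which broke their repeat into 23 to 27 runs of 3 units or more. *Col7a1* held 21 runs with a longest of 75 units, the beaded filament chains reached 28 to 87 units, the short chain network chains 59 to 60 and both multiplexins 30. *Col5a3* (337 units) and *Col1a1* (338 units) were alike in this, whereas *Col27a1* had 217.

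The sequence upstream of the gene start is shown for 4 collagen genes with large differences between stages, *Col5a3*, *Col27a1* and *Col7a1*, which were higher in M cells, and *Col4a6*, which was lower. The stretches are 250 bases, from RefSeq (GRCm38.p6), 5′ to 3′ on the strand of the gene, and no annotated exon lies in them. Capitals mark CAGAC, the core of the element bound by the Smad proteins that relay TGFβ signals, or GGGCGG, the GC box bound by Sp1, each searched on both strands.
Col5a3, chr9:20815068-20815317, minus strand: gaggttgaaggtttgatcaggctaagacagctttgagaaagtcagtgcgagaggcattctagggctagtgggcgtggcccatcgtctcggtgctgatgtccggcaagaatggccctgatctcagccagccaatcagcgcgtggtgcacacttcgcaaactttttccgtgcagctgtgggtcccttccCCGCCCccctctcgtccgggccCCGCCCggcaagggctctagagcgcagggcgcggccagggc
Col27a1, chr4:63215162-63215411, plus strand: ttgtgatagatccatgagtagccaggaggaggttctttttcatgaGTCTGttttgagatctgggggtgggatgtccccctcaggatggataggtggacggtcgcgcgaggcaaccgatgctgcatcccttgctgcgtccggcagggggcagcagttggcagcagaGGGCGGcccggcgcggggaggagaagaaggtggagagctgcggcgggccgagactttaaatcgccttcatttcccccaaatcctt
Col7a1, chr9:108953336-108953585, plus strand: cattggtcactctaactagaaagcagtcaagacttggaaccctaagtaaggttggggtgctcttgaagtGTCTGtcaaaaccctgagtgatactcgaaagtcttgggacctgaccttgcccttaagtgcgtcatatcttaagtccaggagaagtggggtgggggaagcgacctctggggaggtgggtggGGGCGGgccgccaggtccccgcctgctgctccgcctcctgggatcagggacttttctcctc
Col4a6, chrX:141474077-141474326, minus strand: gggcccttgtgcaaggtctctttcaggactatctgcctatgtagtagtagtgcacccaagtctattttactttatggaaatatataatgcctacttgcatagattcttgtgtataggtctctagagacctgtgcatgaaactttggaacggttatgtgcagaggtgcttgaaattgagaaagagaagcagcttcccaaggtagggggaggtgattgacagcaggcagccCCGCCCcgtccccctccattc
RefSeq windows were matched for 30 of the 38 genes, 33 windows in all, since some genes have more than 1 start. CAGAC was present in 45.5% of the 33 collagen windows and in 42.2% of the 32851 windows of all genes. GGGCGG was present in 57.6% of the collagen windows and in 32.7% of all windows. TGANTCA (N being any base) and CACCTG were searched as well and were less frequent in the collagen windows. TGANTCA was in 3.03% of them and in 6.75% of all windows, and CACCTG in 9.09% and 17.2%. A match is a string of letters and was not tested as a binding site.

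Values are coverage, the bases of uniquely mapped reads summed over each gene, in ppm of the normalized library total. A library held 35782513 to 47928557 reads' worth of bases at 50 bases a read. The worth of 3 reads, the least that can be told from 0, was thus 0.0626 to 0.0838 ppm of the library total before normalization. Of the 38 genes, 29 reached 500 bases in at least 2 libraries and were tested with limma in 1 fit of 13893 genes on log2(ppm + 0.1). This scale understates the fold of genes near 0.1 ppm. The fit pools the spread of all stages, so the SE of a gene is the same in every comparison. Replicates differed more in E cells (SD of log2 differences 0.558) than in M (0.318) or RE cells (0.309). The SE can thus be too small in comparisons with E cells and too large in M vs. RE. A gene is called when its log2 fold change exceeds 1 in either direction with a Benjamini-Hochberg adjusted p below 0.01. The other 9 (*Col4a1*, *Col4a2*, *Col9a2*, *Col14a1*, *Col22a1*, *Col23a1*, *Col24a1*, *Col25a1* and *Col28a1*) never exceeded 0.289 ppm. *Col4a1* and *Col4a2*, whose chains form the most widespread type IV network, were thus hardly detected in any stage, at up to 0.157 and 0.206 ppm.

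The epithelial label was checked with 5 marker genes, which summed to 1454 and 1838 ppm in E cells, 1869 and 1975 ppm in M cells and 1050 and 1108 ppm in RE cells. Of these, *Cdh1* (E-cadherin) was 244 to 327 ppm in every library and was not called in any comparison, whereas the other 4 were each called at least once. *Cldn3* (claudin-3, of tight junctions) was lower in M cells (−1.35, adjusted p = 0.00076) and in RE cells (−1.03, adjusted p = 0.00465) than in E cells. The keratins differed in direction, with *Krt14* higher in M than in E cells (1.42) and lower in RE than in M cells (−1.10), *Krt8* lower in RE than in M cells (−1.32) and *Krt18* lower in RE than in E cells (−1.34). Of 6 fibroblast markers, *Dpt* and *Thy1* were at or under 150 bases in every library, whereas the sum of all 6 was 84.7 to 113 ppm in E cells, 442 to 488 ppm in M cells and 766 to 907 ppm in RE cells. Nearly all of that sum was *Pdgfrb* and *Pdgfra*, the platelet-derived growth factor receptors. In E vs. M, *Pdgfrb* was called higher in M cells (2.46), *Pdgfra* was not called (0.78), and *Dcn* (decorin, a fibril-binding proteoglycan) was called lower (−2.24), at 0.496 and 0.301 ppm in E cells, 0 and 0.00679 ppm in M cells and 3.79 and 1.74 ppm in RE cells. All 3 were called higher in RE than in E cells. The sum and the fibrillar chains were both higher in M than in E cells, and the part of these markers in the collagen values was not tested. Each of the lists of 4 endothelial, 3 pericyte and smooth muscle and 3 adipocyte markers summed to at most 9.03 ppm in any library. The highest sum was of the adipocyte list in E cells, nearly all of it *Fabp4*. *Fabp4* was 8.98 and 3.10 ppm in E cells, 0.0561 and 0.0243 ppm in M cells and 2.22 and 1.87 ppm in RE cells. It was called lower in M than in E cells (−5.275) and higher in RE than in M cells (3.94). *Rgs5*, of the pericyte and smooth muscle list, was called higher in M than in E cells (2.63). The 5 immune markers summed to 6.84 to 10.7 ppm in E cells, 33.1 to 36.9 ppm in M cells and 7.47 to 7.56 ppm in RE cells, with *Ptprc* and *Cd3e* at or under 150 bases throughout. The higher sum in M cells was *Csf1r*, the receptor of macrophage colony-stimulating factor, at 1.55 and 1.27 ppm in E cells, 25.8 and 29.9 ppm in M cells and 2.08 and 1.45 ppm in RE cells (4.21 in E vs. M and −3.93 in M vs. RE, both called). *Cdh5* (VE-cadherin), of the endothelial list, was at 0 in E cells, 2.33 and 2.07 ppm in M cells and 0.0423 and 0.0910 ppm in RE cells.

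The collagen chain genes together took 756 and 855 ppm of the library in E cells, 2117 and 2102 ppm in M cells and 2038 and 1706 ppm in RE cells. The sum was 806 ± 69.8 ppm in E cells, 2110 ± 10.9 ppm in M cells and 1872 ± 235 ppm in RE cells (SD, n = 2). Every E library lay below every M and RE library, and the gap was larger than the spread between replicates. M and RE cells did not overlap either, but the higher RE library lay closer to the M libraries than to the other RE library. The composition differed more than the sum. Fibrillar chains made up 9.01% and 8.35% of collagen bases in E cells, 40.4% and 36.5% in M cells and 17.9% and 18.9% in RE cells. Beaded filament chains had their lowest share in M cells. They made up 20.5% and 18.4% in E cells, 1.55% and 1.20% in M cells and 31.8% and 27.3% in RE cells. FACIT chains were 5.0% and 7.79% in E cells, 12.5% and 15.3% in M cells and 23.5% and 21.9% in RE cells, the stages not overlapping. These shares are shares of bases and favour long transcripts.

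**Figure D1:**
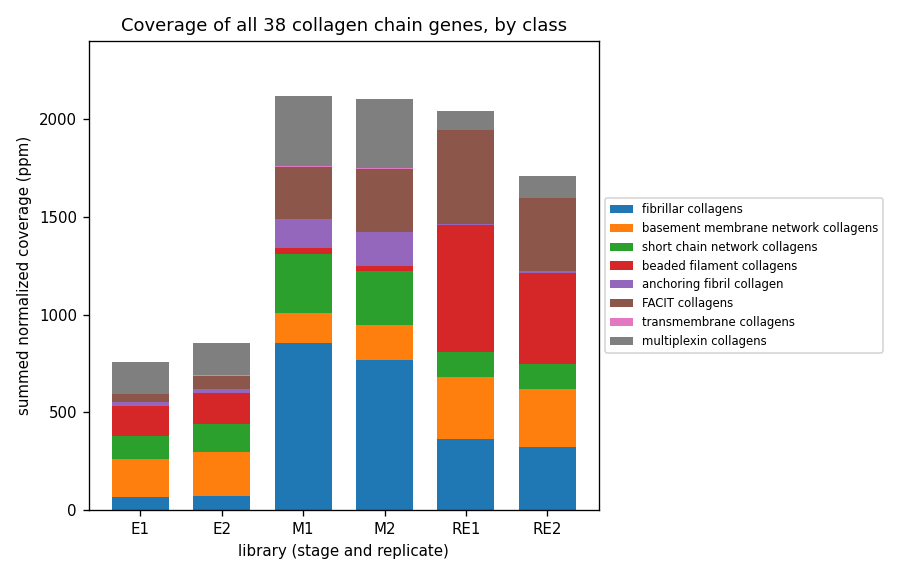
Summed normalized coverage (ppm) of all 38 collagen chain genes in each of the 6 libraries, stacked by class; E1 and E2, M1 and M2, and RE1 and RE2 are replicates and each bar starts at 0. The bars reach 756 and 855 ppm in E cells, 2117 and 2102 ppm in M cells and 2038 and 1706 ppm in RE cells, with fibrillar chains the widest layer in M cells and beaded filament chains in RE cells.

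Corrected for transcript length, the order of the chains differed between stages. In E cells, *Col6a1* (33.4 ppm per kb), *Col4a5* (31.6), *Col18a1* (28.9) and *Col8a1* (25.3) stood above all others, and the next gene, *Col1a1*, was at 5.43 ppm per kb. In M cells, *Col1a1* led with 83.8 ppm per kb, followed by *Col18a1* (63.5) and *Col8a1* (55.6), with *Col5a3* (19.8), *Col12a1* (19.4) and *Col1a2* (18.8) close together. In RE cells *Col6a1* led with 126 ppm per kb, ahead of *Col4a5* (44.6), *Col1a1* (39.9) and *Col12a1* (32.1). The chain of the leading transcript was thus of a fibril in M cells and of a beaded filament in RE cells. In E cells, *Col6a1* and *Col4a5* were too close for a leader to be named. Before the correction for length, *Col4a5* had the highest coverage in both E libraries.

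In E vs. M, 23 of the 29 tested collagen genes were called, 17 higher and 6 lower in M cells. Of all 13893 genes tested, 17.0% were called, 8.58% higher and 8.39% lower in M cells. The median log2 fold change of the 29 was 1.74, against 0.00 over all genes. Without M replicate 1 the count of collagen genes called was 15, and the share of all genes called was 6.9%. In M vs. RE, 16 were called, 5 higher and 11 lower in RE cells, where 12.9% of all genes were called, 8.08% higher and 4.79% lower. Their median log2 fold change was −0.33, against −0.02 over all genes. In E vs. RE, 14 were called, 12 higher and 2 lower in RE cells, where 9.37% of all genes were called, 6.2% higher and 3.17% lower. Here the median was 1.29, against 0.01 over all genes. The E vs. RE count was 3 without RE replicate 1, 6 without RE replicate 2 and 9 with either M library left out, where 0.32%, 1.16% and 4.91% to 4.95% of all genes were called. Calls were thus lost over all genes and not in collagen genes alone. The counts for RE cells include *Col9a1*, which reached the filter in RE libraries alone, so that its calls lend no support to them. The 3 comparisons share libraries, so their counts are not independent. In all, 24 collagen genes were called at least once and 5 of those tested never were.

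**Figure D2:**
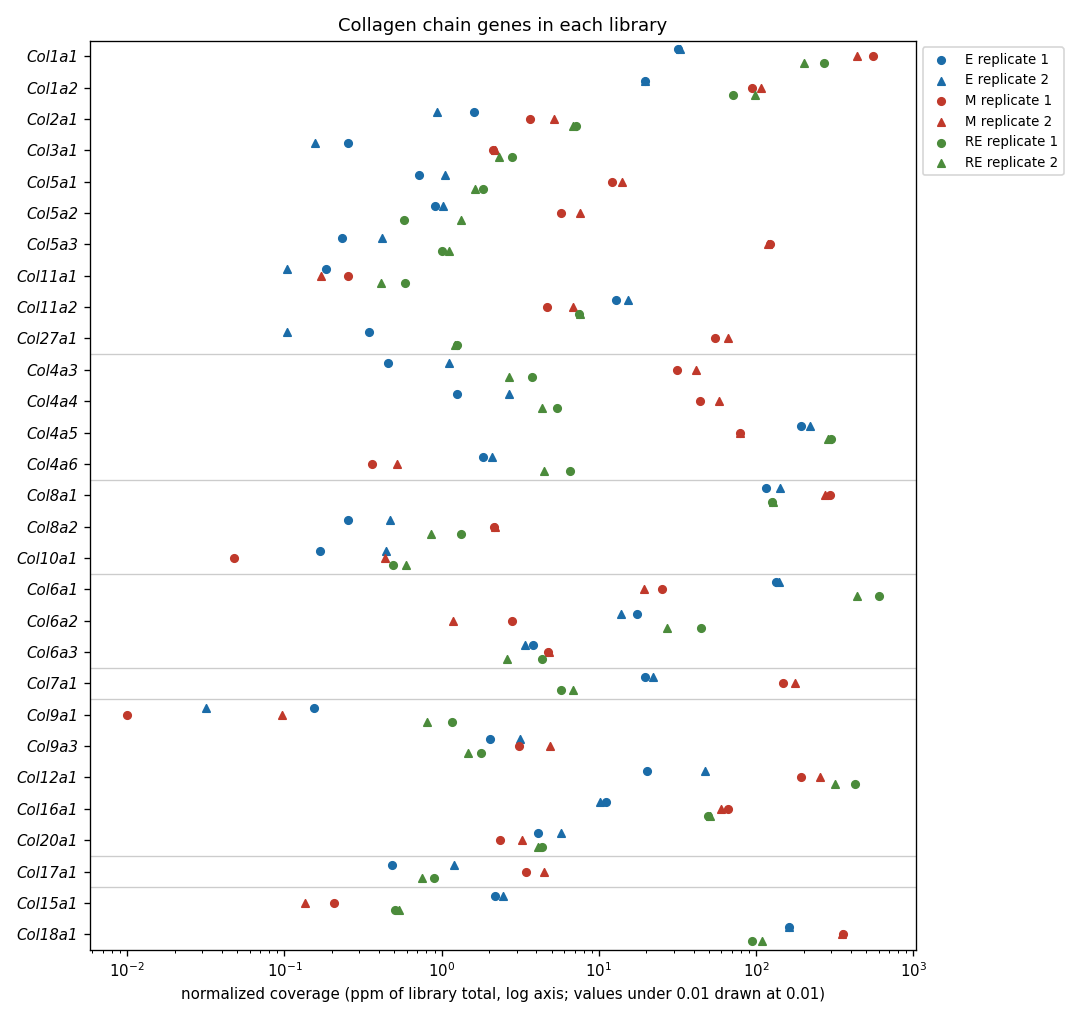
Normalized coverage (ppm, log axis) of the 29 tested collagen chain genes in each library; colours give the stage, symbols the replicate, and lines separate the classes in the order fibrillar, type IV, short chain, beaded filament, type VII, FACIT, type XVII and multiplexin. *Col5a3* and *Col27a1* show the widest gaps, with both M libraries above 50 ppm and all E libraries below 0.5 ppm, and *Col6a1* has its M libraries lowest.

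Among the fibrillar chains, 8 of the 10 tested were called higher and 1 lower in M cells than in E cells. In RE cells, none was called higher and 5 lower than in M cells, and 6 were called higher than in E cells. Of all genes tested, 8.58% were called higher and 8.39% lower in M than in E cells. In RE cells, 8.08% were called higher and 4.79% lower than in M cells, and 6.2% higher than in E cells. The largest differences were in minor chains. *Col5a3*, the α3 chain of type V collagen, which helps to start fibrils and set their width, was 0.231 and 0.417 ppm in E cells, 123 and 119 ppm in M cells and 1.0 and 1.10 ppm in RE cells. The M libraries stood far above both other stages, and the E and RE libraries did not overlap. Its mean was 373-fold higher in M than in E cells (log2 fold change 8.19 ± 0.25 SE, adjusted p = 7.7e-06) and 115-fold higher in M than in RE cells (−6.71 ± 0.25, adjusted p = 9.84e-06). *Col27a1*, the chain of type XXVII collagen of cartilage, was 0.343 and 0.104 ppm in E cells, 54.8 and 65.8 ppm in M cells and 1.24 and 1.22 ppm in RE cells. It rose 270-fold from E to M cells (7.64 ± 0.36, adjusted p = 1.38e-05) and fell in RE cells (−5.50 ± 0.36, adjusted p = 4.59e-05). The E values of these genes rest on few reads, 10 and 16.0 reads' worth for *Col5a3* and 14.8 and 4 for *Col27a1*, so the folds over E cells are imprecise. Both were above E cells in RE cells, *Col5a3* by 1.48 ± 0.25 (adjusted p = 0.0054) and *Col27a1* by 2.14 ± 0.36 (adjusted p = 0.00495). These E vs. RE calls were lost without any one of the M or RE libraries, with adjusted p up to 0.0509 and 0.054, and also without the filter, with a pseudocount of 1 ppm and with only the E and RE libraries fitted. That of *Col27a1* was further lost with GC content and length corrected.

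The other type V chains followed at lower level. *Col5a1* was 0.717 and 1.05 ppm in E cells, 12.1 and 14.0 ppm in M cells and 1.83 and 1.63 ppm in RE cells. *Col5a2* was 0.901 and 1.01 ppm in E cells, 5.75 and 7.60 ppm in M cells and 0.577 and 1.33 ppm in RE cells. For both, the M libraries stood alone at the top, and only for *Col5a2* did E and RE cells overlap. *Col5a1* rose in M cells (3.75 ± 0.25, adjusted p = 4.51e-05) and fell in RE cells (−2.84 ± 0.25, adjusted p = 0.000161). *Col5a2* rose in M cells (2.67 ± 0.37, adjusted p = 0.00125) and fell in RE cells (−2.77 ± 0.37, adjusted p = 0.00133), and both calls were lost with either M library left out (adjusted p up to 0.0179 and 0.019). Neither gene was called in E vs. RE, with 0.91 ± 0.25 (adjusted p = 0.0287) for *Col5a1* and −0.10 ± 0.37 (adjusted p = 0.857) for *Col5a2*.

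Type I collagen, the major collagen of most connective tissue, is built from the products of *Col1a1* and *Col1a2*. *Col1a1* was 31.6 and 32.8 ppm in E cells, 555 and 438 ppm in M cells and 271 and 202 ppm in RE cells, and the 3 stages did not overlap. It rose 15.4-fold in M cells (3.93 ± 0.18, adjusted p = 1.38e-05) and was still 7.34-fold above E cells in RE cells (2.86 ± 0.18, adjusted p = 0.000223). The difference of RE from M cells, −1.08 ± 0.18 (adjusted p = 0.00407), passed narrowly and was lost without any one of the M or RE libraries (adjusted p up to 0.0549) and with library totals in place of the normalization. *Col1a2* was 19.5 and 19.6 ppm in E cells, 93.5 and 108 ppm in M cells and 71.6 and 98.4 ppm in RE cells. It was higher than in E cells in both M cells (2.35 ± 0.18, adjusted p = 7.8e-05) and RE cells (2.10 ± 0.18, adjusted p = 0.000488), while M and RE cells overlapped and differed by −0.26 ± 0.18 (adjusted p = 0.307).

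*Col3a1*, whose homotrimer accompanies type I in elastic tissue, and *Col2a1*, the chain of cartilage type II, were low in every stage. *Col3a1* was 0.255 and 0.156 ppm in E cells, 2.11 and 2.18 ppm in M cells and 2.80 and 2.31 ppm in RE cells. *Col2a1* was 1.60 and 0.938 ppm in E cells, 3.63 and 5.16 ppm in M cells and 7.10 and 6.85 ppm in RE cells. In both genes, E cells were lowest and RE cells highest in every library. *Col3a1* was above E cells by 2.90 ± 0.28 in M cells (adjusted p = 0.000223) and by 3.13 ± 0.28 in RE cells (adjusted p = 0.000531), the latter lost without RE replicate 1 (adjusted p = 0.0153). *Col2a1* was above E cells by 1.74 ± 0.29 in M cells (adjusted p = 0.0031) and by 2.41 ± 0.29 in RE cells (adjusted p = 0.00155). The first was lost without any one of the M or RE libraries (adjusted p up to 0.0347) and with only the E and M libraries fitted, and the second with either RE library left out (up to 0.0273). Neither gene was called between M and RE cells.

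*Col11a2*, a type XI chain of cartilage, was the only fibrillar gene called lower in M cells. It was 12.8 and 15.3 ppm in E cells, 4.67 and 6.84 ppm in M cells and 7.48 and 7.58 ppm in RE cells. The E libraries were the highest and the M libraries the lowest, a log2 fold change of −1.29 ± 0.22 (adjusted p = 0.00321), which was lost without M replicate 1 (adjusted p = 0.0327), with either RE library left out or with only the E and M libraries fitted. Its partner *Col11a1* lay between 0.104 and 0.581 ppm and was not called in any comparison. Both RE libraries were above all others for *Col11a1*, and the E vs. RE difference was 1.29 ± 0.37 (adjusted p = 0.0362).

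**Figure D3:**
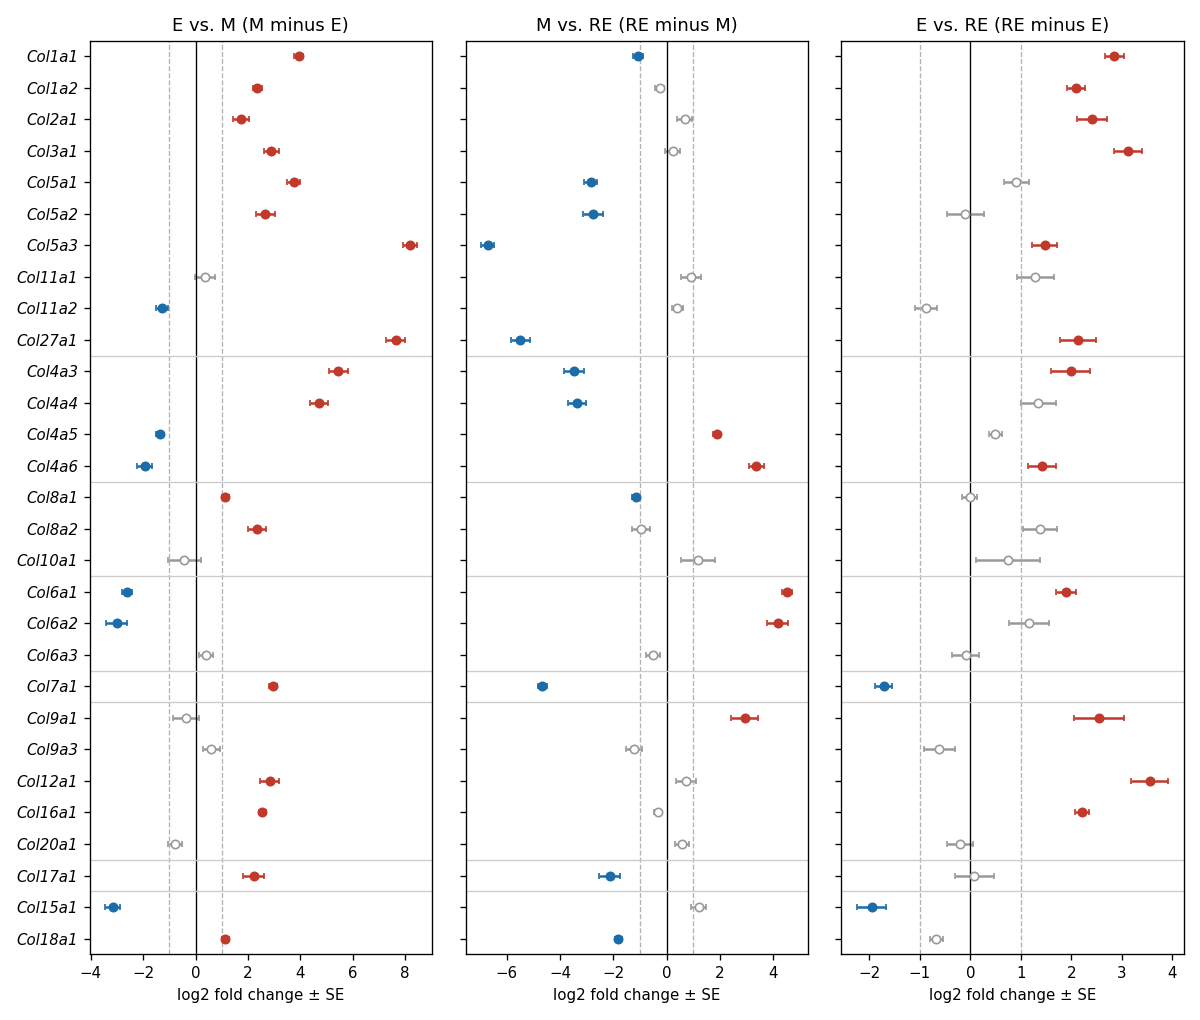
Log2 fold change ± SE, on log2(ppm + 0.1), of the 29 tested collagen chain genes in E vs. M, M vs. RE and E vs. RE; red points are called higher and blue points lower in the second stage, open points are not called, and dashed lines mark a log2 fold change of 1 in either direction. Fold changes in E vs. M run from −3.17 (*Col15a1*) to 8.19 (*Col5a3*), and those in M vs. RE from −6.71 (*Col5a3*) to 4.53 (*Col6a1*), and *Col9a1* is drawn although it reached the filter in RE libraries alone.

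The type IV genes split by pair in E vs. M, 2 higher and 2 lower. *Col4a3* and *Col4a4*, neighbours in opposite orientation whose chains join α5 in the network of the kidney glomerulus, were high in M cells. *Col4a3* was 0.456 and 1.12 ppm in E cells, 31.5 and 41.3 ppm in M cells and 3.76 and 2.66 ppm in RE cells. *Col4a4* was 1.25 and 2.67 ppm in E cells, 43.9 and 58.0 ppm in M cells and 5.39 and 4.32 ppm in RE cells. In both, M cells were highest, RE cells intermediate and E cells lowest, with no overlap. *Col4a3* rose by 5.46 ± 0.38 in M cells (adjusted p = 5.78e-05) and *Col4a4* by 4.71 ± 0.34 (adjusted p = 6.6e-05). In RE cells, *Col4a3* fell by 3.47 ± 0.38 (adjusted p = 0.000506) and *Col4a4* by 3.36 ± 0.34 (adjusted p = 0.00034). Against E cells, only *Col4a3* was called in RE cells (1.99 ± 0.38, adjusted p = 0.00804), and the call was lost without any one of the M or RE libraries (adjusted p up to 0.0869), with library totals, without the filter and with only the E and RE libraries fitted. *Col4a4* differed there by 1.35 ± 0.34 (adjusted p = 0.0224).

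*Col4a5* and *Col4a6* are the other neighbouring pair, and their chains combine in basement membranes of smooth muscle and of several epithelia. Both genes were lowest in M cells instead of highest, but RE cells again lay above E cells. *Col4a5* was 192 and 221 ppm in E cells, 79.2 and 79.2 ppm in M cells and 299 and 284 ppm in RE cells. *Col4a6* was 1.84 and 2.08 ppm in E cells, 0.359 and 0.521 ppm in M cells and 6.53 and 4.47 ppm in RE cells. The M libraries were the lowest and the RE libraries the highest for both genes. *Col4a5* fell by 1.38 ± 0.13 in M cells (adjusted p = 0.000216) and rose by 1.88 ± 0.13 from M to RE cells (adjusted p = 6.03e-05). *Col4a6* fell by 1.95 ± 0.28 in M cells (adjusted p = 0.00161, and 0.0187 without M replicate 1) and rose by 3.37 ± 0.28 in RE cells (adjusted p = 0.000145). RE cells exceeded E cells by 0.50 ± 0.13 for *Col4a5* (adjusted p = 0.026, not called) and by 1.42 ± 0.28 for *Col4a6* (adjusted p = 0.00986). The latter call was lost in 13 of 19 alternatives, among them those without any one of the M or RE libraries (adjusted p up to 0.116). The difference between the pairs was thus carried by 4 genes, all called in both E vs. M and M vs. RE.

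The beaded filament genes *Col6a1* and *Col6a2*, which encode the α1 and α2 chains of type VI collagen, fell in M cells and rose in RE cells. *Col6a1* was 134 and 140 ppm in E cells, 25.2 and 19.2 ppm in M cells and 600 and 436 ppm in RE cells. *Col6a2* was 17.3 and 13.8 ppm in E cells, 2.78 and 1.19 ppm in M cells and 44.5 and 27.0 ppm in RE cells. The stages did not overlap for either gene, and RE cells were the highest. *Col6a1* was lower in M than in E cells (−2.63 ± 0.20, adjusted p = 7.58e-05) and 23.3-fold higher in RE than in M cells (4.53 ± 0.20, adjusted p = 1.16e-05). *Col6a2* gave −3.01 ± 0.39 (adjusted p = 0.000973) and 4.17 ± 0.39 (adjusted p = 0.00025) in the same comparisons. In RE cells, *Col6a1* was 3.78-fold above E cells (1.90 ± 0.20, adjusted p = 0.000876), a call lost without RE replicate 1 (adjusted p = 0.0168), while *Col6a2* was not called (1.16 ± 0.39, adjusted p = 0.0604). *Col6a3*, the larger α3 chain that joins them, lay between 2.60 and 4.82 ppm in all libraries, with log2 fold changes of 0.41 ± 0.26, −0.50 ± 0.26 and −0.09 ± 0.26 (adjusted p = 0.249, 0.194 and 0.819).

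*Col7a1*, the chain of anchoring fibrils, was 19.7 and 22.1 ppm in E cells, 149 and 177 ppm in M cells and 5.74 and 6.87 ppm in RE cells. M cells were highest and RE cells lowest, below E cells. It rose 7.78-fold in M cells (2.95 ± 0.16, adjusted p = 2.29e-05), fell 25.8-fold from M to RE cells (−4.67 ± 0.16, adjusted p = 9.84e-06) and ended below E cells (−1.72 ± 0.16, adjusted p = 0.000679, and 0.0167 without RE replicate 1). *Col17a1*, the hemidesmosomal collagen, was 0.483 and 1.19 ppm in E cells, 3.46 and 4.48 ppm in M cells and 0.895 and 0.747 ppm in RE cells. M cells were highest, and E and RE cells overlapped. The rise in M cells (2.22 ± 0.39, adjusted p = 0.00364) and the fall in RE cells (−2.14 ± 0.39, adjusted p = 0.00555) were both lost without any one of the M or RE libraries, with adjusted p up to 0.039 and 0.0546. The first was also lost with only the E and M libraries fitted and the second without the filter.

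The multiplexins parted in E vs. M. *Col18a1*, whose chain is the precursor of endostatin, was 161 and 163 ppm in E cells, 359 and 352 ppm in M cells and 94.4 and 109 ppm in RE cells. *Col15a1*, a chain of the zone beneath basement membranes, was 2.17 and 2.45 ppm in E cells, 0.206 and 0.135 ppm in M cells and 0.505 and 0.536 ppm in RE cells. The stages were separate for both, with M cells highest for *Col18a1* and lowest for *Col15a1*. *Col18a1* rose by 1.14 ± 0.13 in M cells (adjusted p = 0.000522) and fell by 1.81 ± 0.13 in RE cells (adjusted p = 7.07e-05). The former call was lost with library totals, where its log2 fold change was 0.835, with GC content and length corrected, and with either M library left out (adjusted p up to 0.0122). In RE cells its difference from E cells, −0.67 ± 0.13 (adjusted p = 0.00857), was under the fold required. *Col15a1* fell in M cells (−3.17 ± 0.29, adjusted p = 0.000185) and was below E cells in RE cells (−1.96 ± 0.29, adjusted p = 0.00321, up to 0.0452 with either RE library left out, and also lost with array weights). Its difference between M and RE cells, 1.21 ± 0.29, was not called (adjusted p = 0.0172).

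Of the short chain network genes, *Col8a1*, a type VIII chain found in vessel walls and the cornea, was 116 and 143 ppm in E cells, 296 and 272 ppm in M cells and 127 and 129 ppm in RE cells. *Col8a2* was 0.255 and 0.469 ppm in E cells, 2.16 and 2.17 ppm in M cells and 1.32 and 0.859 ppm in RE cells. M cells were highest for both, and the RE libraries of *Col8a1* lay between its E libraries. *Col8a1* rose by 1.14 ± 0.14 in M cells (adjusted p = 0.000835) and fell by 1.15 ± 0.14 in RE cells (adjusted p = 0.000986), to a difference of −0.01 ± 0.14 from E cells. Both of its calls were lost with library totals, at 0.841 and −0.948, and with either M library left out (adjusted p up to 0.0169 and 0.0208). The first was also lost without E replicate 1 and with GC content and length corrected, where the fold was under that required, and the second with either RE library left out. *Col8a2* passed in M against E cells (2.33 ± 0.34, adjusted p = 0.00151, up to 0.0186 with either M library left out) and in no other comparison. *Col10a1*, of hypertrophic cartilage, was at 0.0479 to 0.596 ppm and was not called.

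The FACIT genes *Col12a1* and *Col16a1*, whose products decorate fibrils, were high in both M and RE cells. *Col12a1* was 20.3 and 47.1 ppm in E cells, 193 and 254 ppm in M cells and 422 and 317 ppm in RE cells. *Col16a1* was 11.1 and 10.2 ppm in E cells, 66.3 and 59.4 ppm in M cells and 49.3 and 50.8 ppm in RE cells. The stages did not overlap, and RE cells were the highest for *Col12a1* but intermediate for *Col16a1*. *Col12a1* was above E cells by 2.83 ± 0.36 in M cells (adjusted p = 0.000905) and by 3.56 ± 0.36 in RE cells (adjusted p = 0.000868). The first was lost without M replicate 2 (adjusted p = 0.0122) and the second with either RE library left out (up to 0.018). *Col16a1* was above E cells by 2.55 ± 0.14 in M cells (adjusted p = 2.17e-05) and by 2.22 ± 0.14 in RE cells (adjusted p = 0.000223). Between M and RE cells the differences were 0.73 ± 0.36 and −0.33 ± 0.14, neither called (adjusted p = 0.172 and 0.112).

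*Col9a1*, a type IX chain that coats cartilage fibrils, was 0.154 and 0.0318 ppm in E cells, 0 and 0.0971 ppm in M cells and 1.17 and 0.810 ppm in RE cells. Only the RE libraries held more than 10 reads' worth of it, 55.3 and 35.6 reads. It was among the genes tested through the RE libraries alone, so its higher level there is given as a description, without a test. *Col9a3* lay between 1.47 and 4.87 ppm and *Col20a1* between 2.35 and 5.76 ppm, and neither was called. Both RE libraries were below all others for *Col9a3*, and the M vs. RE difference was −1.22 ± 0.31 (adjusted p = 0.0221).

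For some chains that assemble together the ratio differed between stages, and for others some of the stages overlapped. The ratio of *Col5a3* to *Col5a1* per kb of transcript was 0.443 and 0.543 in E cells, 14.0 and 11.7 in M cells and 0.753 and 0.932 in RE cells, so the α3 transcript was in excess only in the M libraries. *Col6a1* to *Col6a3* was 86.7 and 102 in E cells, 13.1 and 9.84 in M cells and 342 and 413 in RE cells, with no overlap. *Col6a1* to *Col6a2* was 8.76 and 11.5 in E cells, 10.3 and 18.4 in M cells and 15.3 and 18.35 in RE cells. The M libraries overlapped with both other stages, and both RE libraries lay above both E libraries. *Col1a1* to *Col1a2*, whose products join as 2 α1 chains and 1 α2 chain, was 1.46 and 1.51 in E cells, 5.36 and 3.67 in M cells and 3.41 and 1.85 in RE cells. M cells were highest and E cells lowest for this pair. *Col4a3* to *Col4a4* was 0.433 and 0.496 in E cells, 0.848 and 0.842 in M cells and 0.825 and 0.729 in RE cells. *Col4a5* to *Col4a6* was 106 and 108 in E cells, 224 and 155 in M cells and 46.6 and 64.6 in RE cells, so *Col4a5* was in large excess in every library. *Col5a1* to *Col5a2* was 0.628 and 0.819 in E cells, 1.65 and 1.45 in M cells and 2.50 and 0.963 in RE cells. *Col8a1* to *Col8a2* was 386 and 258 in E cells, 116 and 106 in M cells and 81.2 and 127 in RE cells. M and RE libraries overlapped for both of these pairs, and E libraries were lowest for the former and highest for the latter. With 2 libraries a stage no test of these ratios was made, and ratios over genes of few reads carry their counting error.

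**Figure D4:**
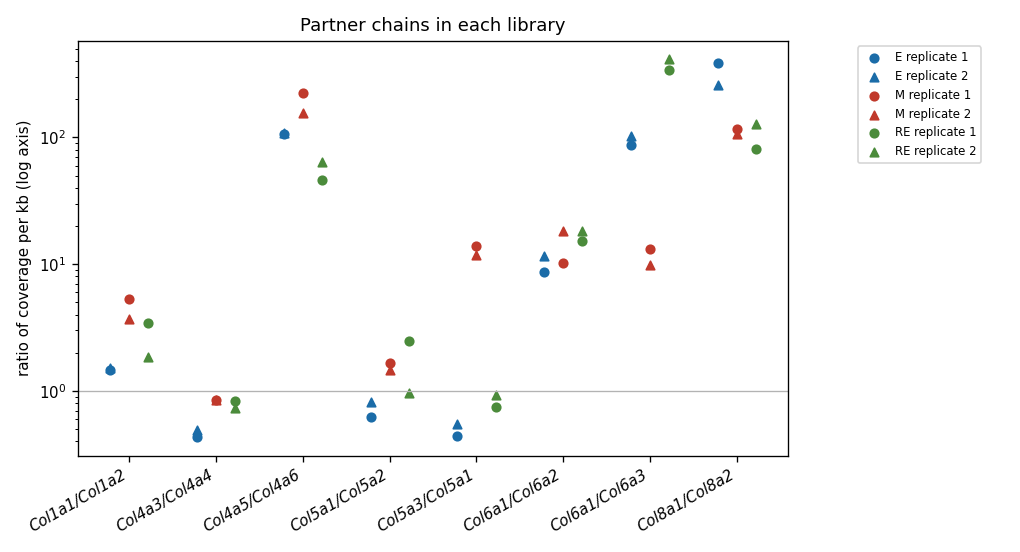
Ratio of coverage per kb (log axis) between chains of the same collagen type in each library; colours give the stage, symbols the replicate, and the grey line is a ratio of 1. *Col5a3* to *Col5a1* lies above 10 in both M libraries and below 1 in the others, and *Col6a1* to *Col6a3* is lowest in M and highest in RE libraries.

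The genes that modify, export, process, crosslink, bind and degrade collagen were taken as a list of 54, of which 45 were in the table and 39 were tested. In E vs. M, 21 were called, 19 higher and 2 lower in M cells, beside 17.0% of all genes tested. The count was 13 with either M library left out, where 6.9% and 7.34% of all genes were called. In M vs. RE, 20 were called, 7 higher and 13 lower in RE cells, beside 12.9% of all genes, and 8 to 13 without one of the M or RE libraries, where 4.96% to 5.96% of all genes were called. In E vs. RE, 10 were called, all higher in RE cells, beside 9.37% of all genes, but 1 without RE replicate 1 and 2 without RE replicate 2, where 0.32% and 1.16% of all genes were called. The first 2 counts include *Tll1* and *Loxl2*, which reached the filter in M libraries alone and lend no support to them. The median log2 fold change was 1.18, −0.58 and 0.39 in turn, against 0.00, −0.02 and 0.01 over all genes.

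By role, 5 of 11 hydroxylation and glycosylation genes, 3 of 5 folding and export genes, 3 of 6 propeptide removal genes and 3 of 5 crosslinking genes were higher in M than in E cells. So were 3 of 8 collagen receptors and 2 of 4 collagenases and gelatinases, where 8.58% of all genes tested were higher in M cells. The propeptide removal count includes *Tll1* and the crosslinking count *Loxl2*. Both reached the filter in M libraries alone and lend no support to these counts. Of these 39 genes, the largest rises were in *Mmp9*, a gelatinase, and *Tll1*, a tolloid protease that trims procollagen. *Mmp9* was 1.42 and 1.74 ppm in E cells, 966 and 866 ppm in M cells and 1.26 and 1.98 ppm in RE cells, a rise of 9.10 ± 0.23 (adjusted p = 7.34e-06) and a fall of 9.09 ± 0.23 (adjusted p = 3.7e-06). *Tll1* was 0.0463 and 0.0520 ppm in E cells, 13.9 and 12.5 ppm in M cells and 0.127 and 0.0683 ppm in RE cells, so its E values were under the worth of 3 reads. Since it was tested through the M libraries alone, these values are a description, without a test.

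The genes called lower in M cells were *Loxl4*, a lysyl oxidase that crosslinks chains, and *Itga10*, a collagen-binding integrin. *Loxl4* was 235 and 567 ppm in E cells, 92.9 and 96.7 ppm in M cells and 440 and 352 ppm in RE cells (E vs. M −1.95 ± 0.36, adjusted p = 0.00445). This call was lost with any one of the M or RE libraries left out and with only the E and M libraries fitted. *Itga10* was 8.90 and 10.1 ppm in E cells, 3.12 and 4.32 ppm in M cells and 31.1 and 22.7 ppm in RE cells (E vs. M −1.34 ± 0.23, adjusted p = 0.00332, and M vs. RE 2.82 ± 0.23, adjusted p = 0.000124). The E vs. M call was lost with either M library left out (adjusted p up to 0.0359). The largest rise from M to RE cells was in *Leprel1* (also P3h2), a prolyl 3-hydroxylase that acts on type IV chains. *Leprel1* was 27.5 and 47.6 ppm in E cells, 20.2 and 22.2 ppm in M cells and 185 and 176 ppm in RE cells, 3.09 ± 0.24 above M cells (adjusted p = 9.68e-05) and 2.32 ± 0.24 above E cells (adjusted p = 0.000898, up to 0.0196 with either RE library left out). *Loxl3*, another lysyl oxidase, was 6.40 and 6.73 ppm in E cells, 91.4 and 79.3 ppm in M cells and 61.8 and 59.7 ppm in RE cells. It had the largest excess of RE over E cells in the list (3.19 ± 0.14, adjusted p = 8.62e-05).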

How the data were processed

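Total RNA of E, M and RE cells (2 libraries each) was sequenced on an Illumina Genome Analyzer. Per the labels and the study's methods, unique reads were mapped to NCBI-m37 with Bowtie and TopHat2 (versions not given in the sources used here). The table deposited by the authors holds coverage, bases summed per gene, a signal and not a read count, so the edgeR test of the study, which needs counts, was replaced by limma 3.58.1 in R 4.3.3. A gene needed 500 bases in 2 or more libraries to be tested. Values were scaled by trimmed mean of M-values (30% of log ratios and 5% of levels trimmed, without weights). Then log2(ppm + 0.1) was fitted over all 6 libraries with a mean trend. The fit was also run on simulated data with the same spread setting in every library. That run cannot speak to the larger spread between replicates in E cells. Depth was 1789125650 to 2396427835 bases, and intervals of counting were not available. Lengths came from GENCODE M21, matched for 89.86% of 17428 genes and for all collagen genes. Collagen genes called at least once are given in full, the rest by range. Of the collagen pathway list, the 2 largest called changes in each direction of each comparison are named. The collagen genes, lists and motifs were chosen with earlier results of these data known. Alternatives covered normalization, filter, pseudocount, thresholds, array weights, the replicate block, libraries left out and, chosen after seeing the data, a GC and length correction. Coordinates belong to the reference sequences (GRCm38) only.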

Additional observations from a re-analysis of the deposited data

How the results depend on the processing

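Of 53 calls of a collagen gene in a comparison, 28 held in every one of 19 alternatives in which the gene was tested, and 38 in every one of the 13 that left out no library. The alternatives that only loosened a threshold, to a fold above 1.5 or an adjusted p below 0.05, could not lose a call. The 53 calls include those of *Col9a1*, which reached the filter in RE libraries alone. The collagen count in E vs. RE was 9 with no filter and 9 with only the 2 groups compared. With single libraries left out, the collagen counts ran from 15 to 23 (E vs. M), 11 to 18 (M vs. RE) and 3 to 17 (E vs. RE), and the pathway counts from 13 to 23, 8 to 20 and 1 to 13. With library totals the median over all genes shifted to a log2 fold change of −0.29 in E vs. M and 0.18 in M vs. RE, and 21, 14 and 11 collagen calls were left. Whether libraries of the same replicate number belong together is not stated, so the numbers were not used as pairs. Over the genes tested, deviations of same-numbered libraries from their stage mean correlated at 0.267 (E and M), 0.058 (E and RE) and 0.116 (M and RE). These values do not settle whether the libraries were paired. With the replicate block 23, 16 and 12 collagen genes and 21, 20 and 11 pathway genes were called. The sign turned, without a call, for *Col17a1* in E vs. RE (−0.00138 with library totals, −0.21 with GC and length trend removed, with or without the replicate block, and −0.49 to 0.66 with single libraries left out). With single libraries left out it also turned in E vs. RE for *Col5a2* (−0.64 to 0.44) and *Col8a1* (−0.16 to 0.14), and in E vs. M for *Col9a1* (−0.88 to 0.11). The cause was not tested. With 2 libraries a stage, leaving one out assumes that the lone library varies like the others.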
